A study of Rattus norvegicus with 22 samples.

Results

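The RNA of 9 genes that mark lymphocytes was followed in the polycystic kidneys of rats injected with human cells or with the medium of these cells. The genes are Cd3e, Cd3d, Cd4, Cd8a and Cd2 of T cells, Ms4a1 and Cd79b of B cells, Nkg7 of natural killer (NK) and cytotoxic T cells, and Ptprc of all leukocytes. The rule that names them uses cell type and no threshold on values, and they are 9 of the 17334 genes listed for each of the 22 rats. All 9 passed the filter on low counts and were tested among 12867 genes.

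All animals were 8 months old rats of the strain PKD/Mhm (Cy/+), which carries 1 copy of the Cy mutation and develops cysts in the kidney, so no healthy kidney is among these samples. The control group held 6 untreated rats. Human adipose-derived stromal cells (ASC) went into 6 rats intraperitoneally (i.p. ASC) and into 6 rats intravenously (i.v. ASC), and 4 rats received the medium conditioned by such cells (ASC-derived CM), all once a month for 6 months. According to the study's methods the rats were male, the cells came from the lipoaspirates of healthy donors and were suspended with human serum, and the left kidney was frozen before the animal was perfused, so the samples hold blood. Values were read from whole kidney tissue, in which fewer lymphocytes and less RNA per lymphocyte cannot be told apart.

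Lymphocytes enter the kidney from the blood, and in chronic kidney disease they gather around vessels and tubules together with macrophages. T cells recognize peptides through a receptor that signals through the CD3 chains, B cells recognize whole antigens through a surface immunoglobulin, and NK cells kill without such a receptor. Cells of another species carry proteins that the lymphocytes of a host can recognize as foreign, and ASC are also known for damping lymphocyte responses in culture.

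Promoter sequences are shown first, as a description of the genes. Their part in the levels of the genes was not tested. RefSeq start sites in the GRCr8 build gave a window of 300 bases, from 250 before to 50 after the start, for 6 of the 9 genes (not for Cd4, Ms4a1 and Cd79b). Shown are Cd2 and Ptprc, the pair with the highest correlation over the rats, and Nkg7, the gene least like the others. They lie at chr2:191412610-191412909 on the minus strand, at chr13:52259697-52259996 on the minus strand and at chr1:102981247-102981546 on the plus strand, each written along its gene, with matches to TGTGGT in capitals (ACCACA where the match is on the opposite strand).
Cd2: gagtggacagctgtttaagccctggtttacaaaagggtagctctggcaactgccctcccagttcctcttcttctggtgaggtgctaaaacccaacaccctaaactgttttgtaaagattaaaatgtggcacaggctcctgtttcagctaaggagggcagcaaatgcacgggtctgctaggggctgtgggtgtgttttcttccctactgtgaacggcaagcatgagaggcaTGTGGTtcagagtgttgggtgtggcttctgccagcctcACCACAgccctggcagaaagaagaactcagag
Ptprc: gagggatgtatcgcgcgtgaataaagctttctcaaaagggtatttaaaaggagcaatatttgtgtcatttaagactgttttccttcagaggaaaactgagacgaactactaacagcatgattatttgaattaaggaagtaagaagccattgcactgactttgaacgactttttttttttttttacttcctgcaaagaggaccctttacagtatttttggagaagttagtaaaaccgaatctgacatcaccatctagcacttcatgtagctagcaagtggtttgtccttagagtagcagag
Nkg7: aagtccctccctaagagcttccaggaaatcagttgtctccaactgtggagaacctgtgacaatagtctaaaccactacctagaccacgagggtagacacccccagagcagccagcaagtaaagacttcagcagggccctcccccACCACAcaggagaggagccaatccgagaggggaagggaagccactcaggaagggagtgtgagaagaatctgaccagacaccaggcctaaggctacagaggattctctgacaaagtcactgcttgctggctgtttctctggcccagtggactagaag
TGTGGT is the core bound by RUNX factors, which are active in T cells. Searched on both strands, it was found in Cd2 at position -20 and, on the opposite strand, at position 19, and in Nkg7 on the opposite strand at position -106, counted from the start site. It was not found in the windows of the other 4 genes, and 17.3% of the 33469 promoter windows of the same length hold it. The octamer ATGCAAAT of B cell promoters (1.78% of all windows) and GAGGAAGT (2.42%), a longer form of the ETS site, had no exact match in the 6 windows. Shorter ETS sequences were not searched, and the B cell genes Ms4a1 and Cd79b had no window to search.

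Each library held between 12195682 and 14734772 estimated counts, with medians of 12932207 in the untreated, 12915592 in the i.p., 12715533 in the i.v. and 12954116 in the CM group. No gene passed an adjusted p of 0.05 in edgeR's quasi-likelihood test in any comparison, whereas 500, 1133 and 849 of the 12867 genes had an unadjusted p under 0.05 in i.p. ASC, i.v. ASC and CM against untreated, and DESeq2 called 0, 22 and 5 genes. For i.p. against i.v. ASC these counts were 281 in edgeR before adjustment and 21 in DESeq2. In i.v. rats 1, 3, 4 and 5 a list of urothelium genes summed to between 23.15 and 545 TPM (transcript abundance relative to the whole library and corrected for transcript length), against at most 16.7 in the rats outside this group (untreated rat 5). Of these 4 libraries, those of rats 1, 3 and 5 (323.9, 545 and 124.7 TPM) stand apart, while that of rat 4 (23.15 TPM) lay near this maximum. The fold changes and counts after i.v. ASC are given with all 6 rats and, for the 9 genes, the lists and the genes named from them, also without these 4 rats, which leaves 2 i.v. rats. That alternative was chosen after seeing the data, and i.v. rats 2 and 6, which remain, were among the 5 highest rats for 6 and 8 of the 9 genes. Shares and medians over all genes were not computed for that alternative, so its counts of genes above 0 have no background.

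Between genes, levels were compared in TPM. Cd4, the co-receptor of helper T cells that rat macrophages also carry, was the highest of the 9 genes at 61.05 ± 21.24 TPM (SD, n = 22). Ptprc (CD45, a tyrosine phosphatase on all leukocytes) followed at 29.93 TPM and lay below Cd4 in 22 of 22 rats. Ptprc, Cd3e, Cd3d, Cd79b and Cd2 lay close together, with means of 29.93, 29.35, 25.6, 24.86 and 23.7 TPM, and each exceeded the next in only 12 to 15 of the 22 rats. Ms4a1 (CD20, 11.9 TPM) stood below Cd2 in 22 of 22 rats, Cd8a (10.76 TPM) below Ms4a1 in 17 and Nkg7 (7.402 TPM) below Cd8a in 20. The ratio of Cd8a to Cd4 in TPM had a median of 0.163 in untreated, 0.154 in i.p., 0.184 in i.v. and 0.189 in CM rats, and its ranges overlapped between the groups. The red blood cell list, which bears on the blood left in the kidney, summed to between 503 and 6370 TPM over the rats, with group medians of 858, 1040, 849 and 1120 TPM in untreated, i.p., i.v. and CM rats.

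No change of a T cell gene passed the test after human cells or their medium. Values by rat are given below in CPM, the count of a gene relative to the total of its library, scaled between libraries. Cd3e, the epsilon chain of the T cell receptor complex, ranged from 12.4 to 20.4 CPM around a median of 16.1 in untreated rats, from 12.5 to 29.6 (median 14.2) after i.p. ASC and from 4.93 to 28.7 (median 21.01) after i.v. ASC. The 4 CM rats had 9.31, 22.4, 19.3 and 28.6 CPM of Cd3e. The untreated rats lay inside the range of the i.v. and CM rats, and CM rat 1 was far below the other CM rats.

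The delta chain, Cd3d, ranged from 4.32 to 11.8 CPM (median 6.58) in untreated rats, from 6.03 to 18.8 (median 7.99) after i.p. ASC and from 2.43 to 15.2 (median 10.2) after i.v. ASC. CM rats had 5.73, 10.9, 9.76 and 10.4 CPM of Cd3d. Of the 9 genes it had the highest log2 fold change after i.p. ASC, 0.37 ± 0.35 (SE) with an adjusted p of 0.811 in edgeR, and the groups overlapped. The change was 0.36 ± 0.35 after i.v. ASC (0.92 ± 0.37 without the 4 rats) and 0.29 ± 0.39 after CM. For Cd3e, the log2 fold changes were 0.06 ± 0.33, 0.20 ± 0.33 (0.71 ± 0.33 without the 4 rats) and 0.29 ± 0.36 after i.p. ASC, i.v. ASC and CM.

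For Cd4 the range was 54.4 to 98.6 CPM (median 72.6) in untreated, 48.1 to 100.8 (median 74.96) in i.p. and 20.8 to 104.7 (median 76.3) in i.v. rats. CM rats had 45.9, 69.0, 103.2 and 110.4 CPM of Cd4, with the highest value of all 22 rats in CM rat 4. Cd8a is the co-receptor of cytotoxic T cells, and other rat leukocytes also carry it. Cd8a ranged from 7.52 to 10.9 CPM (median 8.67) in untreated, from 5.03 to 11.2 (median 9.43) in i.p. and from 2.43 to 17.9 (median 10.3) in i.v. rats. The spread of Cd8a was narrowest in the untreated group, and every treated group had rats above and below it.

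CM rats had 5.65, 11, 11.7 and 19.8 CPM of Cd8a, and 3 of these 4 values lay above the untreated maximum of 10.9. The log2 fold change of Cd8a was 0.44 ± 0.36 (edgeR, adjusted p = 0.841) after CM, the largest among the 9 genes, and its 95% interval ran from a 0.802-fold to a 2.3-fold level. Cd2, an adhesion receptor of T and NK cells, ranged from 11.6 to 21.2 CPM in untreated, 9.76 to 28.5 in i.p. and 5.50 to 23.2 in i.v. rats, and measured 10.8, 22, 19.5 and 23.3 in CM rats. No pair of groups was separated for either gene. After i.v. ASC the log2 fold change of Cd8a was 0.21 ± 0.33 and without the 4 rats 0.75 ± 0.34, and that of Cd2 was 0.07 ± 0.29 and without them 0.54 ± 0.32. For Cd4 it was -0.07 ± 0.29 with all rats and 0.43 ± 0.29 without the 4 rats.

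**Figure D1:**
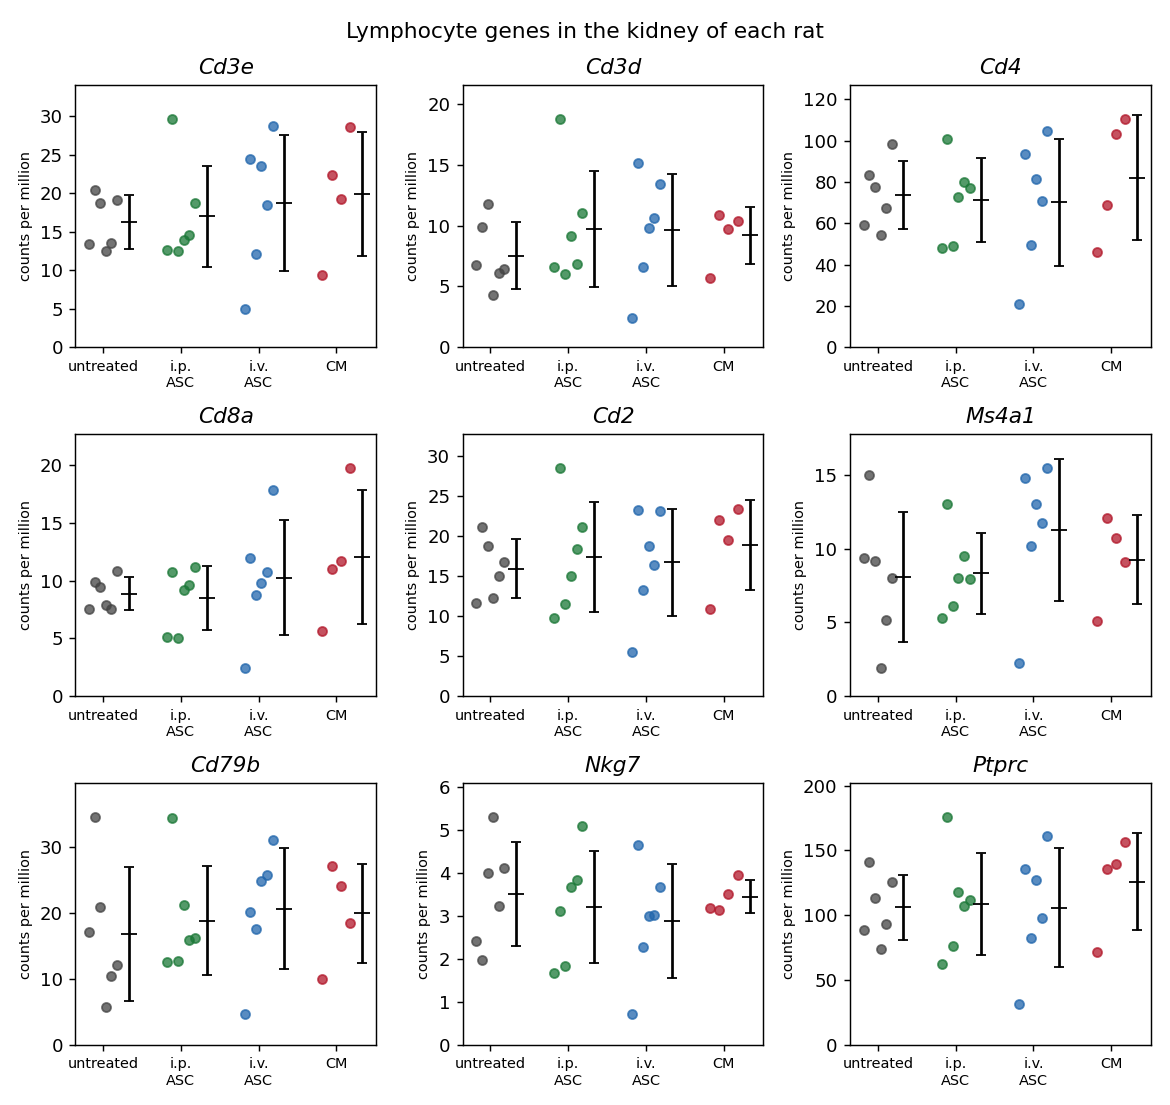
CPM (linear axis from 0) of the 9 lymphocyte genes, 1 panel per gene, with 1 point per rat in the 4 groups and the mean ± SD beside the points. The groups overlap in every panel, and i.v. ASC rat 1 lies at the lower end, at 4.93 CPM for Cd3e and 31.1 CPM for Ptprc.

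The B cell genes had the highest coefficients of variation between rats of the 9 genes, given further on. Ms4a1, which encodes the B cell surface protein CD20, ranged from 1.90 to 15.05 CPM (median 8.57) in untreated, from 5.32 to 13.1 (median 7.99) in i.p. and from 2.26 to 15.5 (median 12.4) in i.v. rats. CM rats had 5.10, 12.1, 10.8 and 9.09 CPM of Ms4a1. The lowest and nearly the highest value of the study were both in the untreated group, and 5 of the 6 i.v. rats lay above the untreated median. The log2 fold change after i.v. ASC was 0.48 ± 0.39 (edgeR, adjusted p = 0.603), the largest among the 9 genes in that comparison, with a 95% interval from 0.788-fold to 2.45-fold. It was 0.90 ± 0.46 without the 4 i.v. rats.

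Cd79b, a signalling chain of the B cell receptor, ranged from 5.69 to 34.6 CPM (median 14.6) in untreated, from 12.6 to 34.4 (median 16.1) in i.p. and from 4.69 to 31.1 (median 22.5) in i.v. rats. CM rats had 10.03, 27.2, 24.1 and 18.5 CPM of Cd79b. The untreated group alone spanned a 6.09-fold range. Log2 fold changes of Cd79b were 0.17 ± 0.40 after i.p. ASC, 0.30 ± 0.40 after i.v. ASC (0.61 ± 0.49 without the 4 rats) and 0.25 ± 0.45 after CM.

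Nkg7, a protein of cytotoxic granules, was the only one of the 9 genes with a fold change below 0 in all 3 comparisons with untreated rats, which share the untreated rats. Its range was 1.98 to 5.31 CPM (median 3.62) in untreated, 1.67 to 5.09 (median 3.39) in i.p. and 0.727 to 4.64 (median 3.01) in i.v. rats, with 3.18, 3.13, 3.52 and 3.95 CPM in CM rats. The CM rats lay within 1.26-fold of each other and inside the untreated range. Log2 fold changes were -0.13 ± 0.33, -0.28 ± 0.33 and -0.03 ± 0.36 after i.p. ASC, i.v. ASC and CM, with adjusted p of 0.928, 0.719 and 0.998 in edgeR. The change after i.v. ASC was 0.24 ± 0.36 once the 4 i.v. rats were left out. At a mean of 3.246 CPM it was the scarcest of the 9 genes in reads.

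Ptprc, which all leukocytes express, ranged from 73.8 to 141.4 CPM (median 103.1) in untreated, from 62.3 to 176.0 (median 109.6) in i.p. and from 31.1 to 161.0 (median 112.4) in i.v. rats. CM rats had 71.9, 135.9, 139.5 and 156.6 CPM of Ptprc. The group medians of Ptprc lay close together, except for the CM group, in which 3 of 4 rats lay between 135.9 and 156.6. Log2 fold changes were 0.03 ± 0.30, -0.002 ± 0.30 and 0.25 ± 0.33, and without the 4 i.v. rats the change after i.v. ASC was 0.49 ± 0.31.

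Set against all genes, 0 of the 9 genes were called in i.p. ASC against untreated, where 0% of 12867 genes were called, and the same counts and background of 0% held for i.v. ASC, for CM and for i.p. against i.v. ASC. None of the 9 had an unadjusted p under 0.05 in these 4 comparisons, where 3.89%, 8.81%, 6.6% and 2.18% of all genes had one, and DESeq2 called none of the 9 either. Groups that did not overlap were found for 0 of the 9 genes, against a background of 0.14%, 0.179%, 1.42% and 0.0544% of all genes. Of the 9 genes, 6 had a fold change above 0 after i.p. ASC, 6 after i.v. ASC and 8 after CM, with median log2 fold changes of 0.04, 0.20 and 0.25 beside -0.01, -0.01 and -0.003 over all genes tested. Of all genes tested, 46.2%, 47.5% and 49.1% lay above 0. Most of the 9 genes varied together over the rats, as given further on, so their directions are not separate results. On log2(TPM + 1) the direction of the majority turned for the cell injections, with 3 of 9 above 0 after i.p. and 3 of 9 after i.v. ASC, and stayed at 8 of 9 after CM.

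The intervals show how large a change these groups of rats could have hidden. Over the 9 genes, the 95% intervals reached from 0.573-fold to 2.14-fold after i.p. ASC, from 0.514-fold to 2.45-fold after i.v. ASC and from 0.582-fold to 2.3-fold after CM. Without i.v. rats 1, 3, 4 and 5, all 9 genes had fold changes above 0 after i.v. ASC, from 0.24 (Nkg7) to 0.92 (Cd3d), with a median of 0.61 on the log2 scale and adjusted p of 0.997 (edgeR, 2 i.v. rats). As said above, the i.v. rats kept here were among the highest of all rats for most of the 9 genes. Unadjusted p values (edgeR) were then under 0.05 for Cd3e (0.0459), Cd3d (0.0245) and Cd8a (0.0408). The share of all genes under 0.05 in this fit was not computed, so these values have no background beside them. Between the routes, the 9 log2 fold changes of i.p. against i.v. ASC ran from -0.44 (Ms4a1) to 0.15 (Nkg7), with all adjusted p at 1.0, and without the 4 i.v. rats all 9 lay below 0 with a median of -0.47 and the smallest adjusted p at 0.898 (Cd8a at -0.81 ± 0.34, with an unadjusted p of 0.03 in edgeR).

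**Figure D2:**
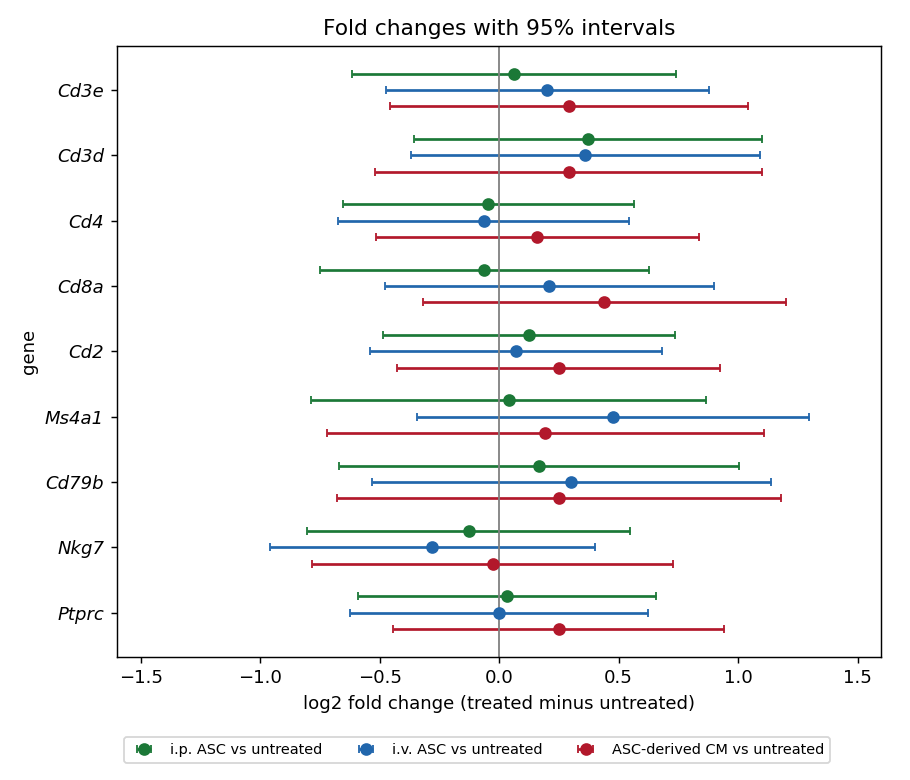
Log2 fold change of each of the 9 genes (horizontal axis, treated minus untreated) after i.p. ASC, i.v. ASC and ASC-derived CM, as points with 95% intervals from the edgeR fit. Every interval includes 0, and the points lie between -0.28 (Nkg7, i.v. ASC) and 0.48 (Ms4a1, i.v. ASC).

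From the lowest to the highest rat the 9 genes spanned 2.34 (Cd2) to 2.95 (Cd8a) on the log2 CPM scale, against log2 fold changes between groups of at most 0.48 in size with all rats, and up to 0.92 without the 4 i.v. rats. The biological coefficient of variation, which is the spread between rats of 1 group beyond counting error, was 0.35 (Cd2) to 0.477 (Cd79b), higher than in 87.6% to 95.1% of all genes. Among genes within 0.5 log2 CPM of their own level, 8 of the 9 genes stood above 90.5% or more, and Nkg7 above 76.5%.

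The same rats stood at the ends for most of the genes. I.v. ASC rat 1 ranked last of 22 for 8 of the 9 genes and 21st for Ms4a1. I.p. ASC rat 2 was among the 5 highest rats for 7 genes and i.v. ASC rat 6 for 8 genes, and CM rat 1 was among the 5 lowest for 8 genes. I.v. rat 1 also had the highest sum of the proximal tubule list in its group, 19100 TPM, and i.p. rat 1 (18500 TPM) and CM rat 1 (17900 TPM), both low in the lymphocyte genes, had the highest sums in theirs. The group medians of this list were 5130 TPM in untreated, 7150 in i.p., 7380 in i.v. and 8160 in CM rats. Their part in these values was not tested.

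Not all genes kept this order. Untreated rat 4 had the highest Nkg7 of all 22 rats, the lowest Ms4a1 and the second lowest Cd79b, and its ratio of Ms4a1 to Cd3e in TPM was 0.116 against a median of 0.425 over all rats. Untreated rat 2 was the reverse, with the highest Cd79b and a rank of 19 for Nkg7. Nkg7 over Cd3e was 0.582 in untreated rat 4 and 0.131 in untreated rat 2, the extremes of the study.

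**Figure D3:**
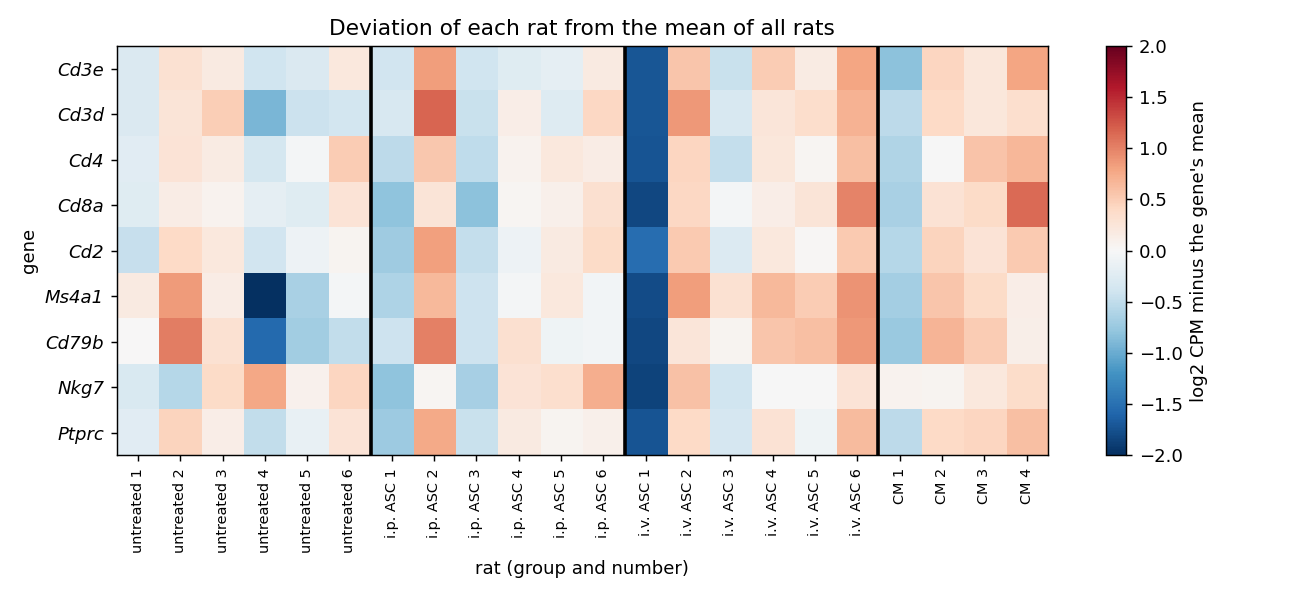
Log2 CPM of each of the 9 genes (rows) in each of the 22 rats (columns, groups divided by black lines) minus the mean of that gene, from blue (below) to red (above). I.v. ASC rat 1 is below the mean for all 9 genes, and untreated rat 4 is low in Ms4a1 and Cd79b but high in Nkg7.

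Over the 22 rats, 34 of the 36 pairs of these genes were positively correlated at an adjusted p under 0.05 (permutation test, 2-sided, adjusted over the 36 pairs), with a median Pearson r of 0.81. Cd2 and Ptprc had the highest r of 0.97 (Spearman's rho 0.93; permutation p = 1e-05 for both, the smallest the permutations can give, adjusted to 2.12e-05 for r and 2.77e-05 for rho). Without the 2 rats farthest from the median of Cd2, r was 0.93. For every pair the 2 rats left out were picked by its first gene, in the order the genes were introduced. Different pairs can therefore lose different rats. The B cell pair, Ms4a1 and Cd79b, had an r of 0.95 (rho 0.90), and 0.89 without 2 rats. The correlations held in the deviations from the group means too, where again 34 pairs passed, with a median r of 0.86.

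Nkg7 stood apart from the B cell genes, with an r of 0.28 (rho -0.03; permutation p = 0.202 for r and 0.884 for rho, adjusted 0.208 and 0.884) to Ms4a1 and of 0.27 (rho -0.07; permutation p = 0.213 and 0.766, adjusted 0.213 and 0.788) to Cd79b. Its r to Cd3e was 0.61 over 22 rats, with a rho of 0.34 (permutation p = 0.00485 and 0.123, adjusted 0.00529 and 0.139). That r was 0.32 (permutation p = 0.167, adjusted 0.188) without the 2 rats farthest from the median of Cd3e. Leaving out extreme rats also narrows the range, and the reason for the drop was not tested. The r of Nkg7 to Ptprc went from 0.66 to 0.19 (permutation p = 0.422, adjusted 0.434) without the 2 rats farthest from the median of Nkg7. With Cd8a, which rat leukocytes other than cytotoxic T cells also carry, r was 0.75 and stayed at 0.54 (permutation p = 0.0132, adjusted 0.017). With 2 rats left out of each pair in this way, 30 of the 36 pairs passed.

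**Figure D4:**
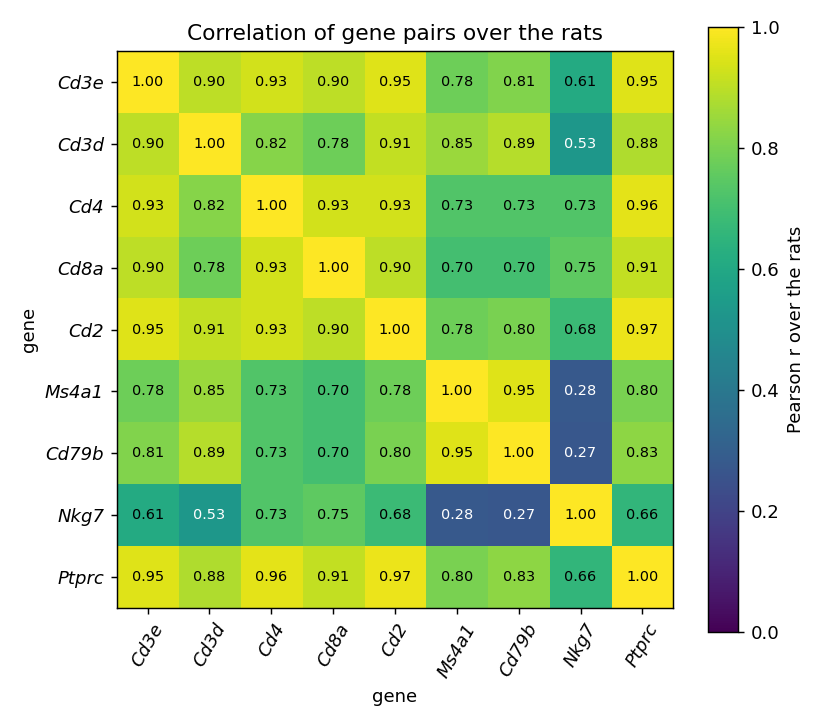
Pearson r over the 22 rats for each pair of the 9 genes, on log2 CPM, printed in each square and coloured from 0 (dark) to 1 (yellow). Every pair without Nkg7 has an r of 0.70 or more, and the Nkg7 row is the lowest, down to 0.27 with Cd79b.

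**Figure D5:**
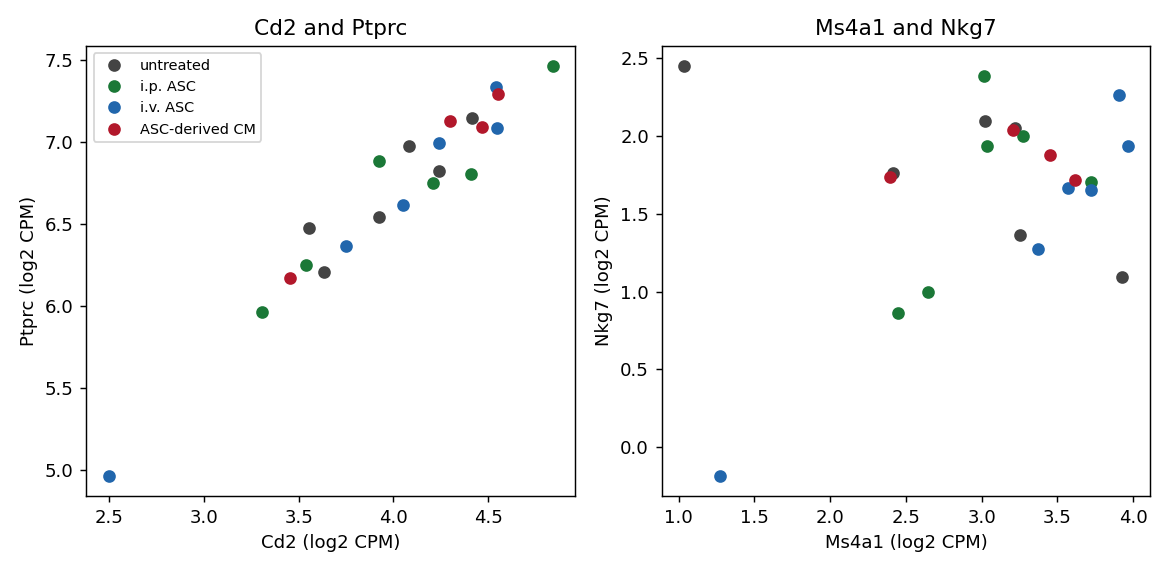
Log2 CPM of Ptprc against Cd2 (left) and of Nkg7 against Ms4a1 (right), 1 point per rat coloured by group. Cd2 and Ptprc rise together (r = 0.97), with i.v. ASC rat 1 at the lower left, while Ms4a1 and Nkg7 do not line up (r = 0.28).

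Every one of the 9 genes was also positively correlated with the mean log2 CPM of a list of 16 macrophage genes, with r from 0.65 (Ms4a1 and Cd79b) to 0.96 (Cd4), all with an adjusted permutation p under 0.05 over the 27 relations between the 9 genes and 3 lists. For Cd4 the rho was 0.94 (permutation p = 1e-05, the smallest possible, adjusted 5.4e-05 for r and 6.75e-05 for rho) and r was 0.92 without 2 rats. Here the 2 rats left out were those farthest from the median of each gene, so they can differ between genes. Without 2 rats, Cd79b (r = 0.50, permutation p = 0.0249, adjusted 0.0612) and Nkg7 (r = 0.41, permutation p = 0.07, adjusted 0.13) no longer passed. With the red blood cell list r lay between -0.19 and -0.02 and none passed, while without 2 rats Ms4a1 alone passed (r = -0.62, permutation p = 0.00307, adjusted 0.0118). With the proximal tubule list r lay between -0.56 (Ms4a1) and -0.38 (Nkg7), 6 of 9 passed, and 2 of these 6, Cd8a and Ms4a1, still passed without 2 rats. To the genes of the urothelium list, by which the 4 i.v. rats were left out, the median r ran from -0.54 (Nkg7) to -0.17 (Ms4a1). These medians were not tested.

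The genes most like each marker over the 22 rats, by Pearson r on log2 CPM among 12866 genes, are given as a description, since all genes share the same libraries. Cd3e was most alike to Gimap7 (r = 0.97), a GTPase of lymphocytes, then to Lsp1, the class II MHC genes RT1-Bb and RT1-Da, and Coro1a (0.96 to 0.97). Cd4 was nearest to Itgal (0.98), an integrin chain of leukocytes, then to RT1-Ba, Lcp1 and the macrophage gene Mpeg1 (0.97). Ms4a1 was nearest to B3gnt5, Fcmr, Siglec10 and Scd (0.93 to 0.95), of which Fcmr is the receptor for IgM. Ptprc was nearest to Rac2, Arhgap30, Cd53, Laptm5 and Coro1a (0.98).

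The nearest genes to Nkg7 were less close. They were Mrc2 (0.86), Foxs1 (0.86), Cd248 (0.85), Olfml3 (0.85) and Cpne7 (0.85), of which Mrc2, a collagen receptor, and Cd248, endosialin, are known from fibroblasts and pericytes. Among the 18 tested genes of the NK list, Nkg7 was most like Ccl5 (0.78), a chemokine of cytotoxic cells, and least like Klrb1c (-0.58), with a median r of 0.64. Its median r was 0.73 with the macrophage list, and 0.55 with the T cell list. For comparison, Ms4a1 and Cd79b had a median r of 0.84 and 0.86 with the B cell list, and 0.43 and 0.49 with the NK list.

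Other genes of the same cell types were read from lists. Beside all list counts above 0 stand 46.2%, 47.5% and 49.1% of all genes after i.p. ASC, i.v. ASC and CM. Genes of a list can vary together over the rats, so these counts are not counts of separate results. The median r of Ptprc to the pan-leukocyte list was 0.95. Of 26 T cell genes, 24 were tested, 0 passed in any comparison, and 13, 19 and 21 had fold changes above 0 after i.p. ASC, i.v. ASC and CM, with medians of 0.01, 0.07 and 0.21 on the log2 scale. The 1 gene of this list with an unadjusted p under 0.05 was Gata3, a factor of helper T cells that is also made in the collecting duct, at -0.31 ± 0.14 after CM (edgeR, unadjusted p = 0.0407, adjusted p = 0.711). After i.v. ASC, 22 of the 24 genes lay above 0 without the 4 i.v. rats (median 0.42). Gata3 was also the most abundant gene of the list, at 71.36 TPM, and its r to Cd3e was -0.04. Among 18 pan-leukocyte genes, 0 passed and 9, 12 and 18 lay above 0, with medians of 0.00, 0.05 and 0.20. All 18 lay above 0 after i.v. ASC without the 4 i.v. rats (median 0.46). Coro1a was the most abundant of them at 136.4 TPM, and the smallest p was for Cytip, at 0.20 ± 0.12 after CM (edgeR, adjusted p = 0.743).

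The B cell and plasma cell list had 16 tested genes of 20, of which 8, 11 and 15 lay above 0 after i.p. ASC, i.v. ASC and CM and 0 passed, with medians of 0.00, 0.11 and 0.17. With only i.v. rats 2 and 6, 14 lay above 0 after i.v. ASC (median 0.52). Its smallest p was for Mzb1, a chaperone of antibody-secreting cells, at 1.45 ± 0.47 on the log2 scale after i.p. ASC (edgeR, unadjusted p = 0.00595, adjusted p = 0.771). Mzb1 ranged from 6.54 to 16.5 TPM (median 9.31) in untreated, from 5.44 to 62.4 (median 23.8) in i.p., from 7.68 to 62.3 (median 15.9) in i.v. and from 7.68 to 23.2 (median 17.8) in CM rats. The groups overlapped at their lower ends, and the highest i.p. and i.v. rats lay far above the untreated maximum. After i.v. ASC the log2 fold change of Mzb1 was 1.27 ± 0.47 (unadjusted p = 0.0139, adjusted p = 0.523) and after CM 0.71 ± 0.52 (adjusted p = 0.819). Its change after i.v. ASC was 2.19 ± 0.50 without the 4 i.v. rats (edgeR, unadjusted p = 0.000416, adjusted p = 0.997).

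The other plasma cell genes had smaller values. Tnfrsf17, the receptor BCMA of plasma cells, had log2 fold changes of 0.93 ± 0.53, 0.51 ± 0.55 and 0.05 ± 0.63, Derl3 of the secretory pathway 0.22 ± 0.29, -0.09 ± 0.30 and 0.34 ± 0.32, and Pou2af1, a B cell co-activator, 0.42 ± 0.30, 0.28 ± 0.30 and 0.19 ± 0.34. Leaving out the 4 i.v. rats gave changes after i.v. ASC of 1.56 ± 0.48 for Tnfrsf17, 0.52 ± 0.34 for Derl3 and 0.77 ± 0.36 for Pou2af1. These 3 genes were chosen after values of the list were seen, and none passed. Immunoglobulin genes, Cd79a and Jchain were not analysed here.

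In the NK and cytotoxic list, 18 of 22 genes were tested, 0 passed, and 8, 7 and 13 lay above 0, with medians of -0.04, -0.11 and 0.18. After i.v. ASC 15 lay above 0 without the 4 rats (median 0.38). The most abundant was Cst7 (26.61 TPM), an inhibitor of proteases in cytotoxic cells, and the smallest p was for Klrb1a, an NK receptor, at -1.14 ± 0.41 after i.v. ASC (edgeR, unadjusted p = 0.0104, adjusted p = 0.523). Klrb1a ranged from 1.54 to 4.35 TPM in untreated and from 0.393 to 2.43 in i.v. rats, and its change was -0.78 ± 0.54 without the 4 rats. The 1 other gene of the list with an unadjusted p under 0.05 was Klrb1c, named after its values were seen, at 0.91 ± 0.42 after i.p. ASC (edgeR, unadjusted p = 0.0433, adjusted p = 0.771) and 0.95 ± 0.42 after i.v. ASC (unadjusted p = 0.0339, adjusted p = 0.523), and at -0.05 ± 0.63 after i.v. ASC without the 4 rats. Klrb1a and Klrb1c are genes of 1 family with similar sequences, between which reads can be split, so both values are uncertain. The killing genes Prf1 (perforin) and Gzmb (granzyme B) had log2 fold changes of -0.21 ± 0.25 and -0.24 ± 0.40 after i.p. ASC, -0.03 ± 0.25 and -0.17 ± 0.40 after i.v. ASC, and 0.18 ± 0.28 and 0.19 ± 0.44 after CM, and were named after their values were seen. Their changes after i.v. ASC were 0.30 ± 0.28 and 0.52 ± 0.52 without the 4 rats.

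Genes of lymphoid tissue and of lymphocyte recruitment numbered 16, all tested, of which 12, 12 and 13 lay above 0 and 0 passed. Ccl21, the chemokine that guides T cells into lymphoid tissue, was the most abundant at 1310 TPM, with log2 fold changes of 0.10 ± 0.34, 0.07 ± 0.34 (0.68 ± 0.40 without the 4 i.v. rats) and 0.26 ± 0.37. Glycam1, a ligand of L-selectin on high endothelial venules, had the smallest p of this list at 1.55 ± 0.58 after i.v. ASC (edgeR, unadjusted p = 0.0149, adjusted p = 0.523), from 0.259 to 2.35 TPM in untreated to 1.77 to 5.05 TPM in i.v. rats, and at 1.28 ± 0.85 without the 4 rats. All 16 genes of the list then lay above 0 after i.v. ASC (median 0.52). Among the lists of other cells, the macrophage list had 16 tested genes, of which 6, 4 and 13 lay above 0 and 0 passed, with medians of -0.02, -0.05 and 0.03, and without the 4 i.v. rats all 16 lay above 0 after i.v. ASC (median 0.41). Lyz2 was its most abundant gene at 1335 TPM, and the smallest p was for Cd163, at -0.38 ± 0.36 after i.p. ASC (edgeR, adjusted p = 0.811).

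The remaining lists hold genes of cells that share the kidney with lymphocytes, and no gene of them passed in edgeR. Of 5 neutrophil genes 3, 1 and 2 lay above 0 after i.p. ASC, i.v. ASC and CM, with the smallest p for Mmp9 at -0.46 ± 0.42 after i.v. ASC (edgeR, adjusted p = 0.637). Of 8 red blood cell genes 2, 1 and 1 lay above 0, with the smallest p for Hbb-b1 at -1.35 ± 0.62 after i.v. ASC (edgeR, adjusted p = 0.523). Without untreated rat 5, which had the highest sum of this list (6372 TPM), the change of Hbb-b1 was -0.15. Of 16 proximal tubule genes 11, 10 and 13 lay above 0, with the smallest p for Slc5a12, a lactate transporter, at -1.17 ± 0.43 after i.v. ASC (edgeR, adjusted p = 0.523). The 5 urothelium genes all lay above 0 after i.v. ASC, with Krt5, a keratin of basal cells, at -5.59 ± 1.02 in i.p. against i.v. ASC (edgeR, adjusted p = 0.0975, and 1.67e-05 in DESeq2). Of 6 adipocyte genes 4, 4 and 3 lay above 0, with the smallest p for Cidec, a lipid droplet protein, at 1.80 ± 0.76 after CM (edgeR, adjusted p = 0.711). With i.v. rats 1, 3, 4 and 5 left out, 5 neutrophil, 0 red blood cell, 3 proximal tubule and 3 adipocyte genes lay above 0 after i.v. ASC, and 1 of the 3 urothelium genes then tested. Mmp9 was then at 0.33 ± 0.45, Hbb-b1 at -1.19 ± 0.98 and Slc5a12 at -0.36 ± 0.53 after i.v. ASC. The part of these cells in the lymphocyte values was not tested.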

How the data were processed

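RNA of the left kidney of 22 rats was sequenced on a BGISEQ-500, and the authors deposited, per rat, estimated counts and TPM values per Entrez gene. Per the submitters' processing notes these came from Trim Galore 0.6.4, kallisto 0.4.6 and the rn6 build, and 14.1% of the deposited estimated counts were not whole numbers. Estimated counts were rounded here. The study's methods also name a human annotation package and DESeq2. Symbols came from RefSeq GRCr8, for 17179 of 17334 genes.

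Groups followed the labels. Genes were filtered and scaled (TMM) and tested with edgeR 4.0.16 in 1 quasi-likelihood fit over the 4 groups with Benjamini-Hochberg adjustment over 12867 genes. Levels are CPM, scaled by TMM, and TPM as the authors deposited them. A prior count of 2 was used for log2 CPM in correlations, whose p came from 100000 permutations of rats, 2-sided. Alternatives were DESeq2 1.42.0, other size factors, other filters, 2-group fits, limma 3.58.1 on log2(TPM + 1) and log2(TPM + 0.1), and leaving out each rat. The code was tested on simulated data. The 12 gene lists and the 9 genes were chosen with earlier results of these data known. Named were the 9 genes, the 5 genes most alike to Cd3e, Cd4, Ms4a1, Nkg7 and Ptprc, and in each list the gene of smallest unadjusted p. The gene of highest mean TPM was named for the T cell, NK and cytotoxic, pan-leukocyte, lymphoid and macrophage lists. That of the B cell, neutrophil, red blood cell, proximal tubule, urothelium and adipocyte lists is not reported here. Among the most alike genes, 1 for Cd4 and 1 for Ms4a1 are not reported here. Each rat is a separate animal. Human transcripts were not analysed here.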

Additional observations from a re-analysis of the deposited data

Results flagged for a closer look

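In the i.v. ASC group, rat 1 lay far below the other 5 rats for 3 genes on the log2 CPM scale: at 1.37 for Cd8a, where the others lay between 3.15 and 4.17, at 1.27 for Ms4a1, where the others lay between 3.37 and 3.97, and at 2.28 for Cd79b, where the others lay between 4.15 and 4.96. In these groups the gap to the nearest rat took 0.637, 0.779 and 0.697 of the whole range, past Dixon's limit for 6 rats. Of 36 groups of rats tested, 3 were past the limit, and chance alone passes about 1 in 20 separate tests. All 3 were the same rat, and most of the 9 genes vary together over the rats. The 36 are thus not separate tests, and the 3 cannot be weighed against that rate. The same rat had the highest sum of the proximal tubule list in its group and 1 of the 4 high sums of the urothelium list, and their part was not tested. Without it, 8 of the 9 genes had fold changes above 0 after i.v. ASC, with a median log2 fold change of 0.40, and none passed (edgeR, smallest adjusted p = 0.668).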

How the results depend on the processing

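None of the 9 genes passed an adjusted p of 0.05 in any comparison under any of the refits tried, with 0.491 as the smallest adjusted p apart from leaving out 1 rat and 0.423 when leaving out 1 rat. Of 266 fold changes recomputed under the other refits 26 had the other sign, and of 414 recomputed with 1 rat left out 57 had. The causes were not tested. No paired analysis was possible because each rat is its own animal and the rat numbers of the groups are not shared in the labels. Protein motifs and promoters of the genes without an entry were not analysed here. With at least 10 counts in every rat, Nkg7 was not tested.

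DESeq2 called 22 genes (19 higher) after i.v. ASC, 5 (3 higher) after CM and 21 (0 higher) between i.p. and i.v. ASC, against 0 in edgeR, and the fit on 2 groups called 1 gene after CM. Leaving out 1 rat gave 0 to 14 calls after i.v. ASC, with 11 without i.v. rat 2 and 14 without i.v. rat 6, and 0 to 13 between the routes, with 13 without either of these rats, and none of the 9 genes was among the calls. On log2(TPM + 1) and log2(TPM + 0.1) the sign turned after i.p. ASC to -0.072 and -0.076 for Cd3e, -0.024 and -0.029 for Cd2, -0.088 and -0.093 for Ptprc, after i.v. ASC to -0.077 and -0.089 for Cd3e, -0.063 and -0.097 for Cd8a, -0.14 and -0.15 for Cd2, and between the routes to 0.0052 and 0.013 for Cd3e. Ptprc after i.v. ASC, at -0.002, moved to 0.0046, 0.0049, 0.0019 and 0.00024 with DESeq2, RLE size factors, no filter and the fit on 2 groups. Without the 4 i.v. rats with urothelium, an alternative chosen after seeing the data, the sign turned after i.v. ASC to 0.43 for Cd4, 0.24 for Nkg7, 0.49 for Ptprc, 0.33 for Mmp9, and between the routes to -0.54 for Cd3d, -0.47 for Cd4, -0.41 for Cd2, -0.36 for Nkg7, -0.45 for Ptprc.

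With 1 rat left out, log2 fold changes crossed 0 within these ranges. After i.p. ASC they ran from -0.17 to 0.14 for Cd3e, -0.17 to 0.058 for Cd4, -0.16 to 0.054 for Cd8a, -0.072 to 0.25 for Cd2, -0.16 to 0.31 for Ms4a1, -0.092 to 0.51 for Cd79b, -0.31 to 0.028 for Nkg7, -0.16 to 0.16 for Ptprc, and without i.p. rat 2 the fold changes of 8 of the 9 genes lay below 0. After i.v. ASC they ran from -0.21 to 0.12 for Cd4, -0.021 to 0.42 for Cd8a, -0.044 to 0.25 for Cd2, -0.16 to 0.19 for Ptprc. After CM they ran from -0.016 to 0.35 for Cd4, -0.0085 to 0.46 for Ms4a1, -0.14 to 0.13 for Nkg7, and between the routes from -0.37 to 0.028 for Cd3e, -0.28 to 0.19 for Cd3d, -0.16 to 0.17 for Cd4, -0.14 to 0.18 for Cd2, -0.39 to 0.022 for Cd79b, -0.042 to 0.34 for Nkg7, -0.15 to 0.20 for Ptprc. Mzb1 after i.p. ASC stayed between 1.10 and 1.66, Klrb1a after i.v. ASC between -1.45 and -0.97, and Glycam1 between 1.29 and 1.99. Hbb-b1 after i.v. ASC ran from -1.54 to -0.15, the latter without untreated rat 5.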
